A study of Mus musculus with 6 samples.

Results

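The Bcl2 family decides whether a cell keeps its mitochondria intact or releases the factors that start apoptosis, and 10 of its genes were followed here between microglia that were rich and microglia that were poor in lipid droplets. The genes were taken by symbol from the deposited table of the series, which listed 15912 genes, and all 10 were found: the guardians Bcl2, Bcl2l1 and Mcl1, the effectors Bax and Bak1, and the BH3-only genes Bid, Bcl2l11, Bbc3, Bad and Bmf. Both groups were CD11b+CD45lo cells, the usual gate for microglia, sorted from the hippocampus of male C57BL/6 mice 3 months of age that had received 1 mg/kg lipopolysaccharide (LPS, which is shed by bacteria and sets off an inflammatory response) into the peritoneum for 4 days and were perfused 24 h after the last dose. The BODIPY-high group held cells with much neutral lipid by the dye BODIPY, and the BODIPY-low group held cells with little. Each group had 3 RNA-seq libraries of about 10000 sorted cells, with hippocampi from 2 mice in each, so every cell compared had been exposed to LPS. Saline-treated mice were not analysed here. Libraries held 37633089 to 39220494 reads in the BODIPY-high gate and 34899413 to 36518323 in the BODIPY-low gate.

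Guardians hold the effectors in check by binding them and the BH3-only proteins. BH3-only proteins act as stress sensors: once made or activated, they occupy the groove of the guardians, and some of them also activate the effectors directly. Freed effectors open pores in the outer mitochondrial membrane, cytochrome c leaks out, and caspases are switched on. In macrophages and microglia the balance of these genes is part of how cells survive or die during inflammation.

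What the members share is the BH3 core, a short helix with which one family member binds another. It was located in the reading frame of each member as a leucine, 3 further residues, a glycine, alanine or serine, an aspartate and then an acidic residue, a glutamine or a glycine. Each of the 10 reading frames held this core at 1 place, as did those of 10.3% of 21591 coding genes at 1 or more places, so the core alone does not mark the family. The pattern was wide enough to take in every member: only Bad used the serine, only Mcl1 the last glycine and only Bmf the glutamine. Its presence in all 10 is therefore not a test. The stretches are shown because the gene with the largest difference between gates, Bmf, is defined by this core. Each is 39 bases of coding sequence, 5′ to 3′, from GENCODE release M21 on build GRCm38 (mm10), with the codons of the leucine, of the small residue and of the aspartate in capitals. They lie at chr1:106712572-106712610 (Bcl2, minus strand), chr2:152829694-152829732 (Bcl2l1, minus), chr3:95659427-95659465 (Mcl1, plus), chr7:45465994-45466032 (Bax, minus) and chr17:27022528-27022566 (Bak1, minus). Those of the BH3-only genes lie at chr6:120897286-120897324 (Bid, minus), chr2:128147141-128147179 (Bcl2l11, plus), chr7:16313764-16313802 (Bbc3, plus), chr19:6950783-6950821 (Bad, plus) and chr2:118545097-118545135 (Bmf, minus).
Bcl2: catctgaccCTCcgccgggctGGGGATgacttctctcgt
Bcl2l1: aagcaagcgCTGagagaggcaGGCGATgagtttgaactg
Mcl1: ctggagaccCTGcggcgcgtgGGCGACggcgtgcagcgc
Bax: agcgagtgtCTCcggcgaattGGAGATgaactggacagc
Bak1: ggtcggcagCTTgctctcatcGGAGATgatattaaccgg
Bid: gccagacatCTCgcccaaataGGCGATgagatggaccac
Bcl2l11: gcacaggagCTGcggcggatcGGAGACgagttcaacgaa
Bbc3: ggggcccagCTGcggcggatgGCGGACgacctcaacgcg
Bad: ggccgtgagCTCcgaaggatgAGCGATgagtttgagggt
Bmf: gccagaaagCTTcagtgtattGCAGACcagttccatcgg
The small residue was glycine (a GGN codon) in the guardians, in the effectors and in Bid and Bcl2l11. It was alanine (GCG and GCA) in Bbc3 and Bmf and serine (AGC) in Bad.

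The gates were checked against cell type markers. The 10 microglia markers, among them Tmem119 and P2ry12, summed to 1874130 to 2571040 normalized counts in BODIPY-high libraries and to 2414890 to 2820880 in BODIPY-low libraries, and none of the 10 was called by the test given further on. Markers of some other cells were higher in the BODIPY-high gate: 8 of 8 choroid plexus markers and 9 of 11 border-associated macrophage markers were called higher. Their sums were 39718 to 52154 and 23099 to 86138 normalized counts in BODIPY-high libraries, against 307 to 2293 and 2623 to 7655 in BODIPY-low libraries. Of 77 cell type markers tested, 24 were called higher, against 2.03% of all genes tested, and 4 of them were among the 8 tested astrocyte markers. The oligodendrocyte, T and NK cell and erythroid lists had 1 marker called higher each. Erythroid sums were 588 to 1717 normalized counts in BODIPY-high libraries, against 25.2 to 137 in BODIPY-low libraries. T and NK cell sums were 296 to 1557 against 13.2 to 100, and oligodendrocyte sums 8224 to 14440 against 7175 to 7265. No endothelial, neuron, monocyte, neutrophil, dendritic cell or B cell marker was called. No marker listed in the table was at 0 in every library. No label states that the pools of mice differ from library to library, and p-values therefore reflect only the scatter of these 3 libraries per gate, which may be technical. In bulk samples, fewer cells of a type and less RNA per cell cannot be told apart.

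Levels of the members spanned a wide range in both gates. Per length, as RPKM (reads scaled to the exon bases of the gene and to the reads of the library), Mcl1 was highest in every library, with 133 to 168 in the BODIPY-high gate and 133 to 174 in the BODIPY-low gate. Mcl1, a short-lived guardian, made up 59.5% ± 3.72 of the members' summed level per length in BODIPY-high libraries and 61.1% ± 3.31 in BODIPY-low libraries (SD, n = 3 each). Bid (23.6 to 32.6 RPKM over the 6 libraries), Bcl2l1 (17.3 to 26.9) and Bax (16.6 to 23.3) followed, and Bcl2l1 overlapped both Bid and Bax, while Bid lay just above Bax. Bcl2l11 (8.34 to 12.2) and Bad (6.89 to 8.36) came next, and these 2 ranges also overlapped. Bcl2 (0.657 to 1.15) and Bak1 (0.044 to 0.201) were lowest, and neither overlapped any other member.

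Bmf held a different place in this order in each gate. In BODIPY-high libraries its level per length was 4.25 to 6.21 RPKM, which overlapped that of Bbc3 (4.19 to 5.46) and lay below that of Bad (7.16 to 7.78). In BODIPY-low libraries it was 7.21 to 7.66, overlapping Bad (6.89 to 8.36) and above Bbc3 (5.14 to 5.76). These are levels per length of all annotated exons, so a gene whose cells use a short form is understated.

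**Figure D1:**
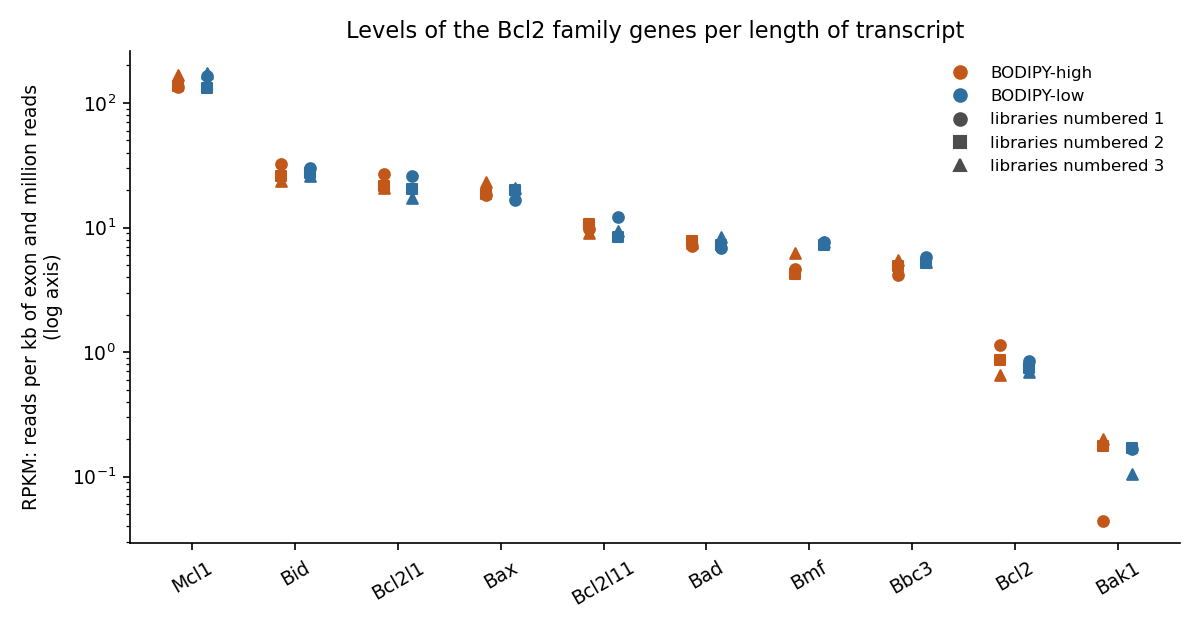
Level of each member in each library, in RPKM on a log axis, with BODIPY-high libraries left of BODIPY-low libraries and the marker shape giving the library number. Mcl1 lies between 133 and 174 in the 6 libraries, Bak1 at 0.201 or less, and Bmf is the one member whose gates separate.

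Bmf was the 1 member whose gates did not overlap, and the other 9 overlapped. Values were compared as log2(normalized count + 1) with limma, with the gate as the only term, over 12767 genes, and a gene was called at a Benjamini-Hochberg adjusted p under 0.05. All 10 members passed the filter on low values and were tested. None was called, against 2.05% of all genes tested (2.03% called higher and 0.0235% called lower in BODIPY-high). At an unadjusted p under 0.05 there was 1 member, Bmf, against 10.3% of all genes. The edgeR quasi-likelihood test on recovered reads also called 0 members (1.75% of all genes called), and DESeq2 called 1, Bmf (3.89% of all genes called). Gates did not overlap for 1 member, Bmf, against 16.3% of all genes tested. The median log2 difference was -0.043 over the 10 members, 3 positive and 7 negative, and -0.0043 over all genes tested.

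**Figure D2:**
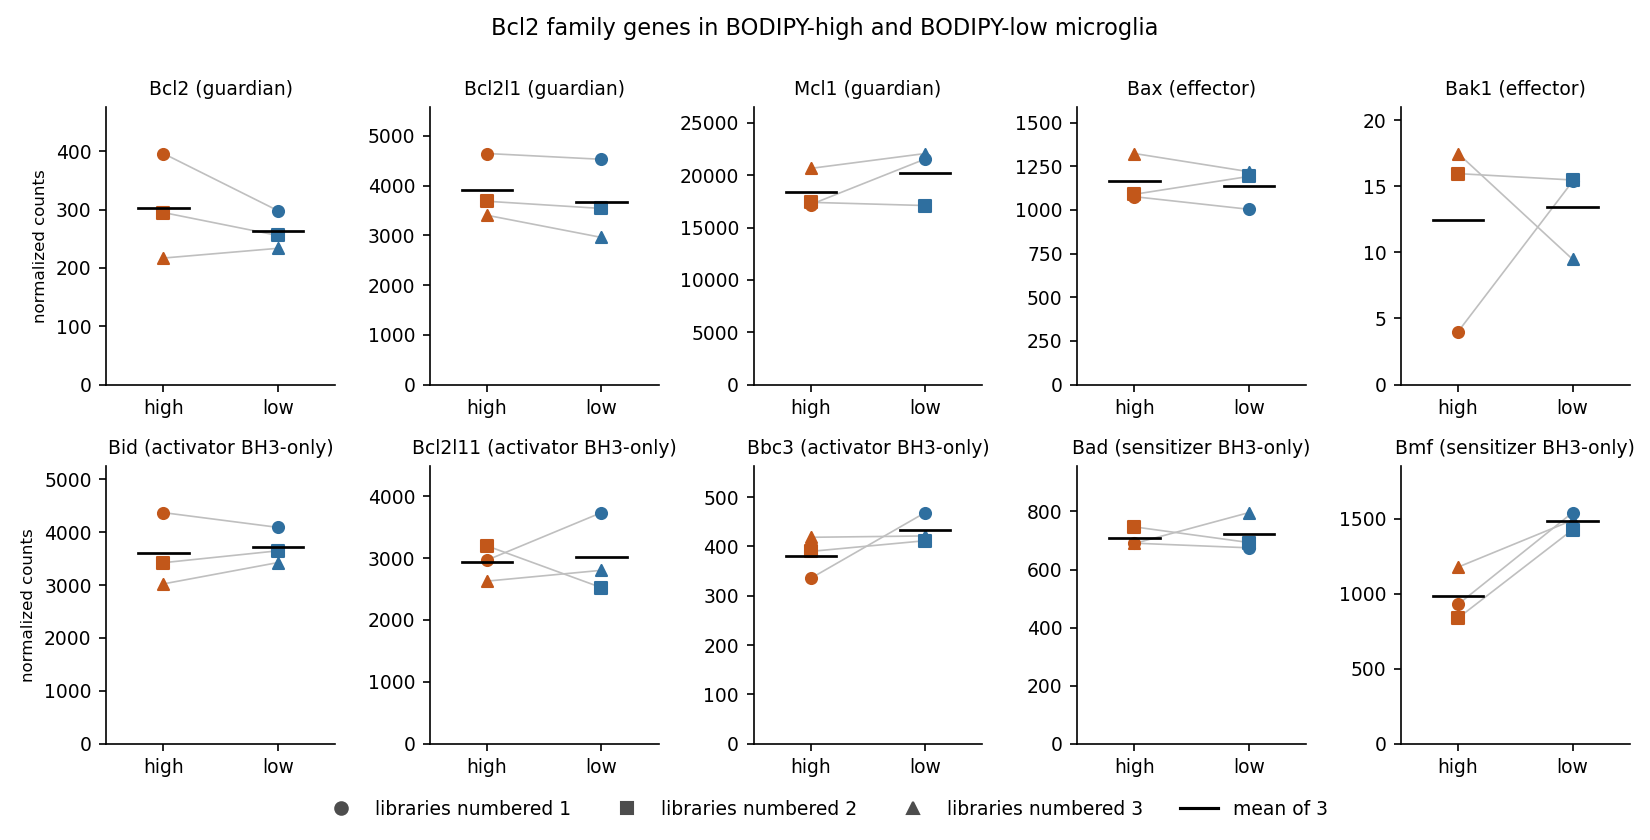
Normalized counts of the 10 members in each library, each panel from 0, BODIPY-high on the left and BODIPY-low on the right, with thin lines joining libraries of the same number and bars at the mean of 3. Bmf is the one panel in which every BODIPY-high value (838 to 1177) lies below every BODIPY-low value (1426 to 1540.4).

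Bmf, a BH3-only gene whose protein is held by the dynein light chain Dynll2 and released when cells detach or are stressed, was lower in BODIPY-high microglia (chromosome 2, 118528757 to 118549687, minus strand). It had 929, 838 and 1177 normalized counts in BODIPY-high libraries 1, 2 and 3, against 1540.4, 1426 and 1489.9 in BODIPY-low libraries 1, 2 and 3. All 3 BODIPY-high values lay below all 3 BODIPY-low values, and the gap was smallest for the libraries numbered 3. Means were 981 ± 176 in the BODIPY-high gate and 1486 ± 57.2 in the BODIPY-low gate (SD, n = 3 each), a ratio of 0.661. The log2 difference was -0.61 ± 0.14 (SE; 95% interval -0.94 to -0.29, or 0.522-fold to 0.821-fold). In the limma test of the gate alone its adjusted p was 0.082, so it was not called. Its p ranked 347 among the 12767 genes tested, and 7 among those with a negative difference. BODIPY-low values were tight, with a coefficient of variation of 3.85%, against 17.9% in the BODIPY-high gate.

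Libraries of the same number deviated together from the mean of their gate, so number was also taken as a block. With the block Bmf passed (log2 difference -0.61 ± 0.12, SE; limma adjusted p = 0.0165), and it was the 1 member called, against 4.83% of all genes called with the block and 0.462% called lower. On recovered reads its adjusted p was 0.0875 with edgeR, 0.0159 with edgeR and the block (4.3% of all genes called), and 0.00832 with DESeq2. Without any 1 library its difference lay between -0.75 and -0.51 and its adjusted p between 0.0566 and 0.289. None of these fits gave Bmf a positive difference.

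Cell type markers also differed between the gates and between the libraries of a gate. BODIPY-high library 3, which had the highest Bmf of its gate, also had the lowest sum of microglia markers (1874130) and the highest sum of border-associated macrophage markers (86138). In the BODIPY-low gate, library 1 had both the highest Bmf and the highest sum of microglia markers (2820880). Set against the microglia markers of the same library, Bmf was 0.361, 0.353 and 0.628 per 1000 marker counts in BODIPY-high libraries 1, 2 and 3, against 0.546, 0.573 and 0.617 in BODIPY-low libraries 1, 2 and 3. On this scale the gates overlapped through BODIPY-high library 3, and the means were 0.448 ± 0.156 in the BODIPY-high gate and 0.579 ± 0.0358 in the BODIPY-low gate (SD, n = 3 each). The part of the other cell types in the lower Bmf was not tested. No exon of Bmf shares bases with another annotated gene.

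**Figure D3:**
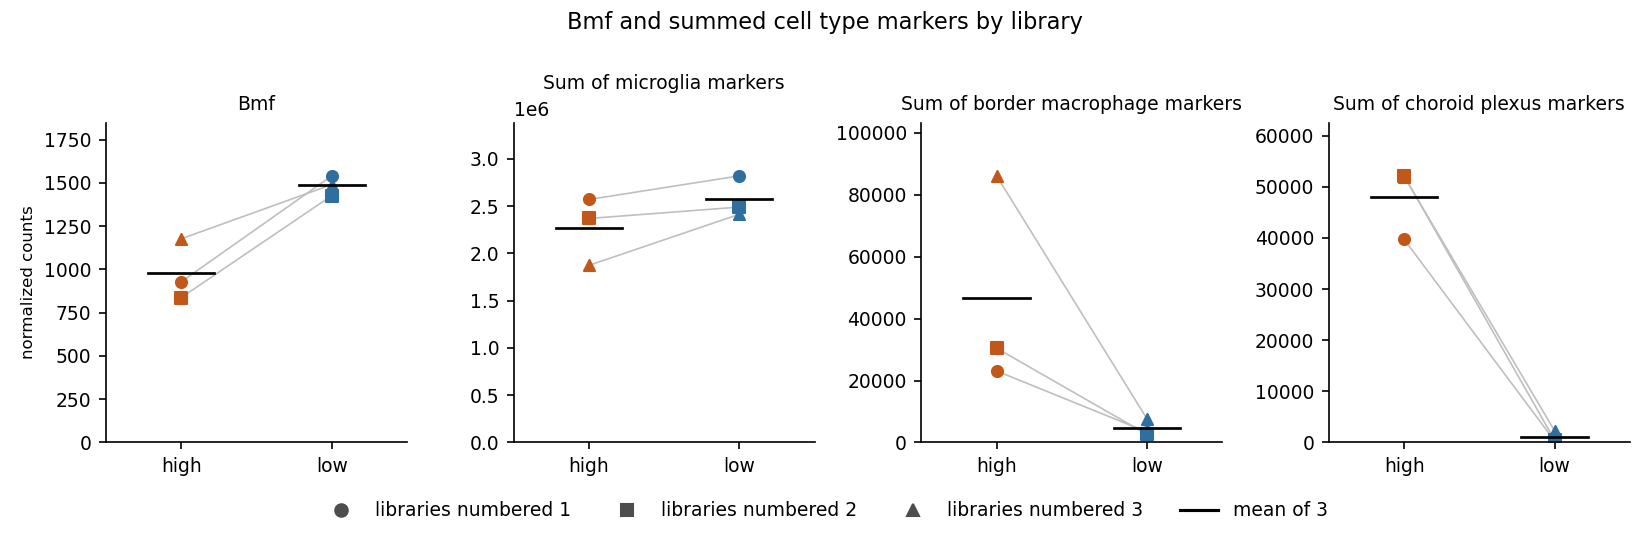
Normalized counts of Bmf and summed normalized counts of the microglia, border-associated macrophage and choroid plexus markers, each axis from 0, BODIPY-high left and BODIPY-low right, lines joining libraries of the same number and bars at the mean of 3. BODIPY-high library 3 (triangle) has the highest Bmf (1177) and the lowest microglia marker sum of its gate.

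Bcl2l11 encodes Bim, the activator BH3-only protein that also sits on dynein light chains and that helps remove surplus immune cells. It had 2968, 3198 and 2628 normalized counts in BODIPY-high libraries 1, 2 and 3, against 3736, 2523 and 2803 in BODIPY-low libraries 1, 2 and 3. The gates overlapped throughout, and the log2 difference was -0.028 (95% interval -0.37 to 0.32; limma adjusted p = 0.982). Set against Bcl2l11 per length, Bmf was 0.478, 0.400 and 0.685 in BODIPY-high libraries 1, 2 and 3 and 0.630, 0.864 and 0.813 in BODIPY-low libraries 1, 2 and 3. This ratio also overlapped between gates, through BODIPY-high library 3 and BODIPY-low library 1.

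Bid, which Casp8 cleaves to link death receptors to mitochondria, was the most abundant BH3-only gene. It had 4370.4, 3423 and 3022 normalized counts in BODIPY-high libraries 1, 2 and 3, against 4091, 3648 and 3425 in BODIPY-low libraries 1, 2 and 3. Its log2 difference was -0.059 (95% interval -0.38 to 0.26; adjusted p = 0.947). Bid made up 49.9% ± 5.33 of the BH3-only level per length in the BODIPY-high gate and 47.8% ± 1.85 in the BODIPY-low gate, and Bmf 9.33% ± 2.30 and 12.9% ± 0.622 (SD, n = 3 each).

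Bbc3 encodes Puma, an activator that p53 induces after DNA damage. It had 335, 389.9 and 418 normalized counts in BODIPY-high libraries 1, 2 and 3, against 468, 411 and 421 in BODIPY-low libraries 1, 2 and 3. It was lower in the BODIPY-high library of each of the 3 numbered pairs, but the gates overlapped and the interval of the log2 difference held 0 (-0.19, 95% interval -0.58 to 0.20; adjusted p = 0.818). Bad, a sensitizer that growth factor signals keep bound to other proteins, varied least in the BODIPY-high gate, with 691, 747 and 689.7 normalized counts there and 675, 693 and 796 in BODIPY-low libraries 1, 2 and 3. Its log2 difference was -0.022 (95% interval -0.33 to 0.29; adjusted p = 0.984).

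The 3 guardians were not called. Mcl1 had 17205, 17413 and 20658 normalized counts in BODIPY-high libraries 1, 2 and 3, against 21552, 17107 and 22079 in BODIPY-low libraries 1, 2 and 3. Libraries numbered 2 were level and the other BODIPY-high libraries lay below their partners, which gave a log2 difference of -0.13 (95% interval -0.42 to 0.15; adjusted p = 0.835). Bcl2l1, which encodes Bcl-xL, the guardian that keeps many long-lived cells alive, had 4648, 3687 and 3405 normalized counts in BODIPY-high libraries 1, 2 and 3, against 4531, 3542 and 2959.8 in BODIPY-low libraries 1, 2 and 3. It was higher in BODIPY-high in 3 of 3 numbered pairs, by little in each, and its log2 difference was 0.099 (95% interval -0.29 to 0.49; adjusted p = 0.917).

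Bcl2, the founding guardian of the family, was scarce in both gates. It had 396, 295 and 217 normalized counts in BODIPY-high libraries 1, 2 and 3, against 298, 256 and 234 in BODIPY-low libraries 1, 2 and 3. The highest and the lowest of the 6 values were both BODIPY-high, and the log2 difference was 0.17 (95% interval -0.41 to 0.75; adjusted p = 0.904). Bcl2, Bcl2l1 and Bid had their highest value in library 1 and their lowest in library 3 of each gate. Microglia marker sums were likewise highest in library 1 and lowest in library 3 of each gate, with 2571040, 2369920 and 1874130 in BODIPY-high libraries 1, 2 and 3 and 2820880, 2490900 and 2414890 in BODIPY-low libraries 1, 2 and 3. Neutrophil and monocyte marker sums were lowest in library 1 of each gate, at 81596 and 9209 in BODIPY-high library 1 and 70903 and 9883 in BODIPY-low library 1. Their highest sums were 196783 and 31764 in BODIPY-high, against 147020 and 24353 in BODIPY-low. The part of these cell types in the levels of Bcl2, Bcl2l1 and Bid was not tested.

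Of the effectors, Bax was well expressed and Bak1 close to the detection limit. Bax, which moves from the cytosol to mitochondria when activated, had 1076, 1089.8 and 1323 normalized counts in BODIPY-high libraries 1, 2 and 3, against 1004, 1192 and 1219 in BODIPY-low libraries 1, 2 and 3. The gates overlapped, and the log2 difference was 0.030 (95% interval -0.28 to 0.34; adjusted p = 0.976). Bak1, the effector that resides in the outer membrane, had 4, 16 and 19 reads in BODIPY-high libraries 1, 2 and 3, against 14, 15 and 9 in BODIPY-low libraries 1, 2 and 3. With so few reads its log2 difference was uncertain (-0.28, 95% interval -1.88 to 1.31; adjusted p = 0.948), and a change of 2-fold in either direction was not detectable at this depth.

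**Figure D4:**
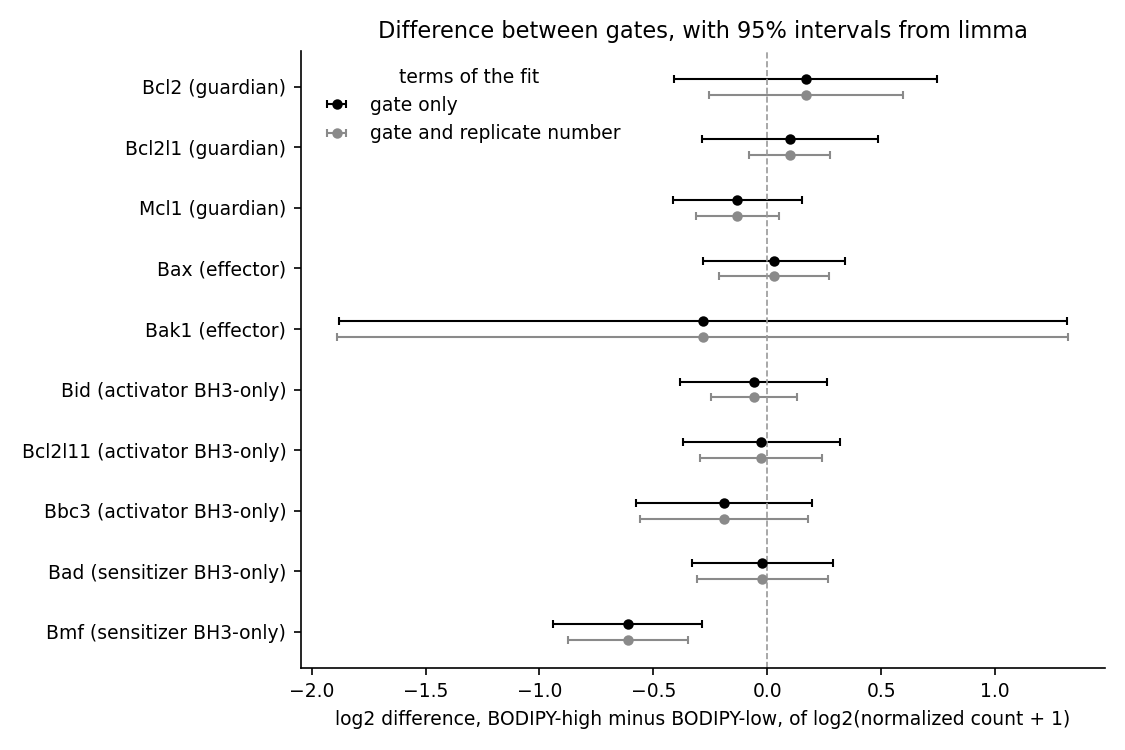
Log2 difference between BODIPY-high and BODIPY-low for each member on the log2(normalized count + 1) scale, points with 95% intervals from limma, with the gate as the only term (black) and with the replicate number as a second term (grey). The intervals of Bmf lie below 0 in both fits (-0.94 to -0.29 and -0.88 to -0.35), and that of every other member spans 0.

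Exon bases of 5 members are shared with a neighbouring gene, and the library kits do not keep the strand. They are shared with a gene on the opposite strand for Bak1 (25.5% of its exon bases, with Ggnbp1), Bad (20.5%, Gpr137), Bid (17.7%, Bcl2l13) and Bcl2 (6.09%, D630008O14Rik), and with a gene on the same strand for Bax (12.2%, Gm45808). Whether strand was used in counting such bases is not given in the sources used here. Bmf, Bcl2l11, Bbc3, Bcl2l1 and Mcl1 share no exon base with another gene.

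Summed over roles among the members alone, the balance differed between gates by less than the spread of the libraries. The guardian sum held only Bcl2, Bcl2l1 and Mcl1, and the BH3-only sum only Bid, Bcl2l11, Bbc3, Bad and Bmf. Further family genes were in neither sum, among them Pmaip1 and the guardian Bcl2a1b. Mean Bcl2a1b was 112.9 RPKM in BODIPY-high and 140.5 in BODIPY-low libraries, against 145.6 and 157.0 for Mcl1. The ratios therefore do not give the balance of the whole family. BH3-only reads per guardian read were 0.418, 0.402 and 0.327 in BODIPY-high libraries 1, 2 and 3, against 0.398, 0.416 and 0.354 in BODIPY-low libraries 1, 2 and 3. Means were 0.382 ± 0.0485 in the BODIPY-high gate and 0.389 ± 0.0323 in the BODIPY-low gate (SD, n = 3 each). Bax per Bcl2, per length, was 15.8, 21.5 and 35.4 in BODIPY-high libraries 1, 2 and 3 and 19.6, 27.1 and 30.3 in BODIPY-low libraries 1, 2 and 3, again with more spread within gates than between them. These ratios are descriptions and were not tested.

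Genes that act around the family were followed in 7 lists with 75 genes, of which 69 were tested. None was called by limma or by edgeR or DESeq2 without the block, while 3 were higher and 2 lower at an unadjusted p under 0.05, against 8.03% and 2.27% of all genes tested. The gates did not overlap for 4 genes that were higher and 8 that were lower in BODIPY-high, against 10.4% and 5.95% of all genes tested in these directions. With the replicate block 2 of the 69 were called, Bcl2a1b and Xiap, both lower. Of all genes tested, 4.83% were called with the block in either direction and 0.462% were called lower.

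Among 12 tested further Bcl2 family genes, 0 were called by limma with the gate alone; log2 differences ran from -0.34 to 1.98 with a median of -0.037. Bcl2a1b encodes a copy of A1, a guardian that NF-kB induces in inflamed myeloid cells. It had 3164, 3306 and 3777 normalized counts in BODIPY-high libraries 1, 2 and 3, against 3784, 4336 and 4856 in BODIPY-low libraries 1, 2 and 3. The gates did not overlap, narrowly (log2 difference -0.34 ± 0.12, SE; limma adjusted p = 0.322, and 0.0377 with the block). Its near-identical copy Bcl2a1a had a log2 difference of -0.31 (limma adjusted p = 0.562). Reads that match more than 1 A1 copy may have been left out of the counts or split between copies, so their single values are uncertain.

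Among 5 inhibitor of apoptosis genes, 0 were called with the gate alone, and the list median was -0.029. Xiap, which blocks active caspases, had 447, 523 and 259 normalized counts in BODIPY-high libraries 1, 2 and 3, against 686, 756 and 457 in BODIPY-low libraries 1, 2 and 3. Both libraries numbered 3 were the lowest of their gates, so the gates overlapped while all 3 numbered pairs were lower in BODIPY-high (log2 difference -0.65 ± 0.29, SE; limma adjusted p = 0.494, and 0.0317 with the block). Birc6, a large ubiquitin ligase of the same class, had a log2 difference of -0.13 (adjusted p = 0.93).

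Downstream of the mitochondrial pore, 0 of 14 apoptosome and caspase genes were called, with a list median of 0.0025. Aifm1, a mitochondrial flavoprotein that can leave with cytochrome c, had 1299, 1200.5 and 1072 normalized counts in BODIPY-high libraries 1, 2 and 3, against 982, 965 and 867 in BODIPY-low libraries 1, 2 and 3 (log2 difference 0.34, adjusted p = 0.359). Its gates did not overlap, yet it did not pass.

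Upstream, no list had a called gene with or without the block. Of 7 death receptor genes (median -0.037), the TNF receptor gene Tnfrsf1a had a log2 difference of -0.21 (adjusted p = 0.542) and Cflar, the brake on Casp8, one of -0.19 (0.784). Of 11 genes of BH3 protein partners and Mcl1 turnover (median -0.037), Ywhab and Ywhaq, whose proteins hold phosphorylated Bad, had 0.25 and 0.14 (0.474 and 0.704). Dynll2, the partner of Bmf, was on this list with a log2 difference of -0.027 and was not called (adjusted p = 0.989).

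Of 10 stress regulators the median was -0.12. Mapk8, a kinase gene whose protein acts on Bim and Bmf, had 125, 123 and 90.1 normalized counts in BODIPY-high libraries 1, 2 and 3, against 188, 194 and 128 in BODIPY-low libraries 1, 2 and 3. The gates did not overlap, by a narrow margin, and it was not called (log2 difference -0.58, limma adjusted p = 0.56). E2f1, a cell cycle transcription factor gene that can also raise BH3-only genes, had a log2 difference of 0.45 (adjusted p = 0.571). Of 10 tested p53 targets the median was 0.013. Phlda3, a repressor of Akt, had 30, 48 and 76 reads in BODIPY-high libraries 1, 2 and 3, against 3, 19 and 22 in BODIPY-low libraries 1, 2 and 3 (log2 difference 1.88, adjusted p = 0.389). Its gates did not overlap, and at these few reads its interval ran from 0.23 to 3.54. Btg2, an antiproliferative gene, had a log2 difference of -0.26 (adjusted p = 0.409). For comparison, the 12767 genes tested had 259 called higher and 3 called lower, and a median of -0.0043.

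**Figure D5:**
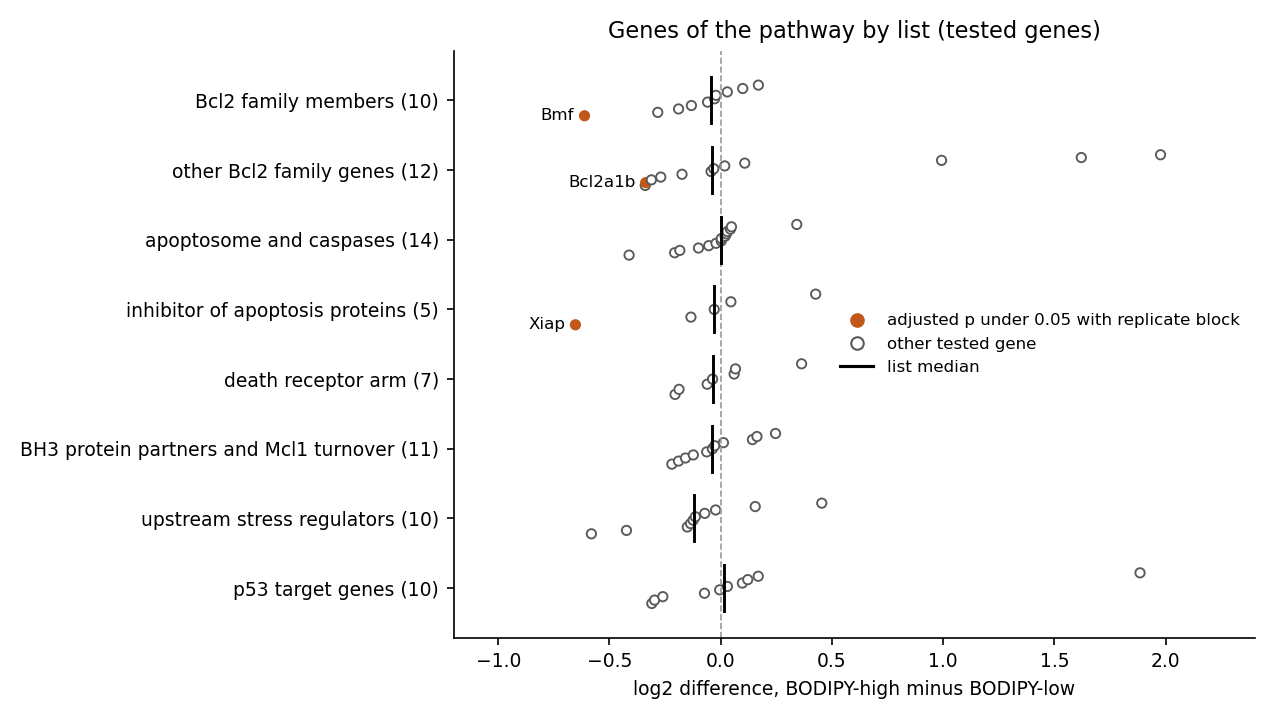
Log2 difference between BODIPY-high and BODIPY-low for each tested gene of the members' list and the 7 lists around it (number tested in brackets), with a bar at each list median and filled points for genes past an adjusted p of 0.05 in limma with the replicate block. Bmf, Bcl2a1b and Xiap are filled, all below 0, and list medians lie between -0.12 and 0.013.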

How the data were processed

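Per the labels' protocols, libraries were made with the Smart-seq v4 and Nextera XT kits. Per the series' design text, the authors aligned reads to mm10 with STAR 2.5.3a after FastQC 0.11.4 and counted them per gene with STAR; mm9 stands beside mm10 in the submitters' processing notes. Neither annotation nor strand setting is given in the sources used here. Deposited values are a normalized signal: the authors' gene counts, scaled by 1 size factor for each library (0.911 to 1.09). Every value was a whole multiple of 1 step per library within 0.05 of a read (100% of values), which gave back whole reads. A count of 0 allows 3 reads, or 2.76 to 3.29 normalized counts; such limits cover counting error only, since PCR copies are not independent.

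The test was limma-trend (limma 3.58.1, R 4.3.3) of log2(normalized count + 1), two-sided, for genes with at least 10 normalized counts in at least 3 libraries. A larger pseudocount shrinks the log2 difference of low genes: for Bak1 it was -0.308 with 0.5, -0.283 with 1 and -0.17 with 5. A fold on this scale is still not a lower bound. For Phlda3 it was 3.69, against a ratio of means of 3.21. Alternatives were edgeR 4.0.16 and DESeq2 1.42.0 on recovered reads, TMM scaling, other pseudocounts and filters, a replicate block and each library left out; edgeR with the block was added after seeing the data. The limma fits with and without the block, edgeR and DESeq2 were tested on simulated data. The check of pairing gave correlations of deviations of 0.354, 0.244 and 0.363 for same-numbered libraries and -0.255 to -0.0951 for others. Deviations were taken from the mean of each gate and so cancel within it. The negative values are therefore tied to the positive ones and are not a separate result. The labels give the numbers only. No 2 libraries agreed within sampling noise (chi-square per degree of freedom at least 30.8). Named genes were all members, and from each list the called genes and the 2 of smallest p, of which 1 is not reported here; Dynll2 was added after its value was seen. Members and lists were chosen with earlier results of these data known. Gene positions and exon lengths are from GENCODE M21 (GRCm38).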

Additional observations from a re-analysis of the deposited data

How the results depend on the processing

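Of 89 member values under other settings with all libraries, 86 kept their direction and their side of the threshold; the other 3 were Bmf, which passed with DESeq2, with the replicate block and with edgeR and the block, so the count of members called was 1 in these and 0 elsewhere. Genes of the 7 lists called were 2 with the block, in limma and in edgeR, and 0 otherwise. The block changed no other call among the members. Over all genes, calls were 558 higher and 59 lower with the replicate block, 499 and 50 with edgeR and the block, 464 and 32 with DESeq2, and 131 and 1 with a filter at 50; edgeR without the block called 1 lower. Leaving out 1 library gave 15 to 271 higher and 0 to 2 lower. Of 60 member values so made, 11 changed sign, none called: the log2 differences ran from -0.046 to 0.39 for Bcl2, -0.047 to 0.26 for Bcl2l1, -0.067 to 0.082 for Bax, -0.62 to 0.32 for Bak1, -0.21 to 0.060 for Bid, -0.15 to 0.14 for Bcl2l11 and -0.068 to 0.051 for Bad. The median of all genes moved by -0.012 with TMM scaling. Depth limits Bak1, and 3 libraries a gate limit all members: a p that missed the threshold does not show equal levels.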
